A study of Mus musculus with 8 samples.

Results

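The 58 protein-coding genes described here make, sulfate and trim glycosaminoglycans and related sulfated glycans, and they were picked by gene name from the 54532 genes of the deposited P5/P12 count table. The names covered the Chst, Hs2st, Hs3st, Hs6st, Ndst, Ext, Xylt, Has, Chsy, Chpf, Csgalnact, B3gnt and Sulf families, Papss1, Papss2 and Ugdh. Chst1 was chosen by its measured values, for its large fall at P12, so that its difference between ages is given as a description without a test and Chst1 is left out of the counts of members below. The other 57 members were taken by name, in families chosen with earlier results of these data known.

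RNA-seq was performed on first molar enamel organs of untreated wt C57BL/6 mouse pups at postnatal day 5 (P5, secretory stage) and day 12 (P12, maturation stage), with no genetic alteration in either group. Each library was a pool of 5 pups, and each age had 4 libraries, numbered 1, 3, 4 and 5 at P5 and 1 to 4 at P12, which is the order of all values below. The labels call the cells epithelially derived, but the molars were homogenized after their pulp was taken out, and the sex of the pups is not given. P-values measure the spread between these pools.

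Glycosaminoglycans are long sugar chains. Chondroitin, dermatan and heparan sulfate grow on a serine of a proteoglycan core protein from a xylose-primed linker, keratan sulfate is a sulfated poly-N-acetyllactosamine on N- or O-glycans, and hyaluronan is made free of protein at the plasma membrane. Sulfotransferases in the Golgi place sulfate groups from the donor PAPS at defined positions, and the pattern of sulfates influences which proteins the chain binds. In developing teeth, such chains are known from basement membranes, the stellate reticulum, predentin and the forming enamel matrix.

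The total count per library lay between 16574548 and 22013456, and a count of 0 in a library allows up to 3 counts, which are 0.136 to 0.181 CPM (reads of a gene scaled to a fixed library total). All values below are normalized counts, scaled by edgeR's TMM method to a common library size of 19006280, and genes were tested by the quasi-likelihood test of edgeR, adjusted after Benjamini-Hochberg for the 16440 genes above edgeR's low-count filter. Levels of different genes were compared as normalized counts per kilobase of gene length. Ratios of paired genes and sums over genes were not divided by length unless per kilobase is stated. The secretory ameloblast markers Amelx, Ambn, Enam and Mmp20 summed to 4966559 to 5580346 at P5 and to 237041 to 621683 at P12, and all 4 were lower at P12. The maturation markers Klk4, Amtn, Odam and Slc24a4 summed to 12681 to 43951 at P5 and to 354258 to 477588 at P12, and all 4 were higher. Other cell types were present at both ages: the mesenchyme markers Col1a1, Col1a2, Col3a1 and Vim summed to 879144 to 1060642 at P5 and to 731899 to 979022 at P12. Since the samples are bulk tissue, fewer cells of a type and less RNA per cell cannot be told apart. The limit given for a count of 0 covers counting error only, while SDs and standard errors include the spread between pools.

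Of the 58 members, 51 passed the filter. Among the 50 other than Chst1, 18 were higher and 19 lower at P12 and 13 did not pass an adjusted p of 0.05. These are 36% higher and 38% lower, where 28.8% of all genes tested were higher, 28.4% lower and 57.2% called in either direction. By at least 1 log2 unit, 9 members were higher and 7 lower, where 11.3% and 10.2% of all genes were. All P12 libraries lay above all P5 libraries for 16 members and below them for 14, where 26% and 26.6% of all genes did so. The median log2 fold change was 0.10 for the 50 members and 0.01 for all genes. Scaled by total count alone, which moved the median of all genes to 0.38, 26 members (52%) were higher and 11 (22%) lower, where 54% of all genes were higher and 14.2% lower. Under that scaling Ugdh, Xylt2, Chsy1, Chst14, Chst15, Ext2, Hs3st5 and B3gnt9, which had not passed, passed as higher. The other 7 members were too low to be tested. Chst4 and B3gnt4 had 0 counts in all 8 libraries, which for Chst4 allows up to 0.181 CPM. B3gnt4 shares 93.2% of its exonic bases with Diablo on the opposite strand. Diablo had 265 to 314 counts at P5 and 307 to 395 at P12. Without the counting strand, that limit cannot be given for B3gnt4. Chst9 had at most 1 count, and Ndst4, Hs3st2, B3gnt6 and B3gnt7 had at most 20.

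**Figure D1:**
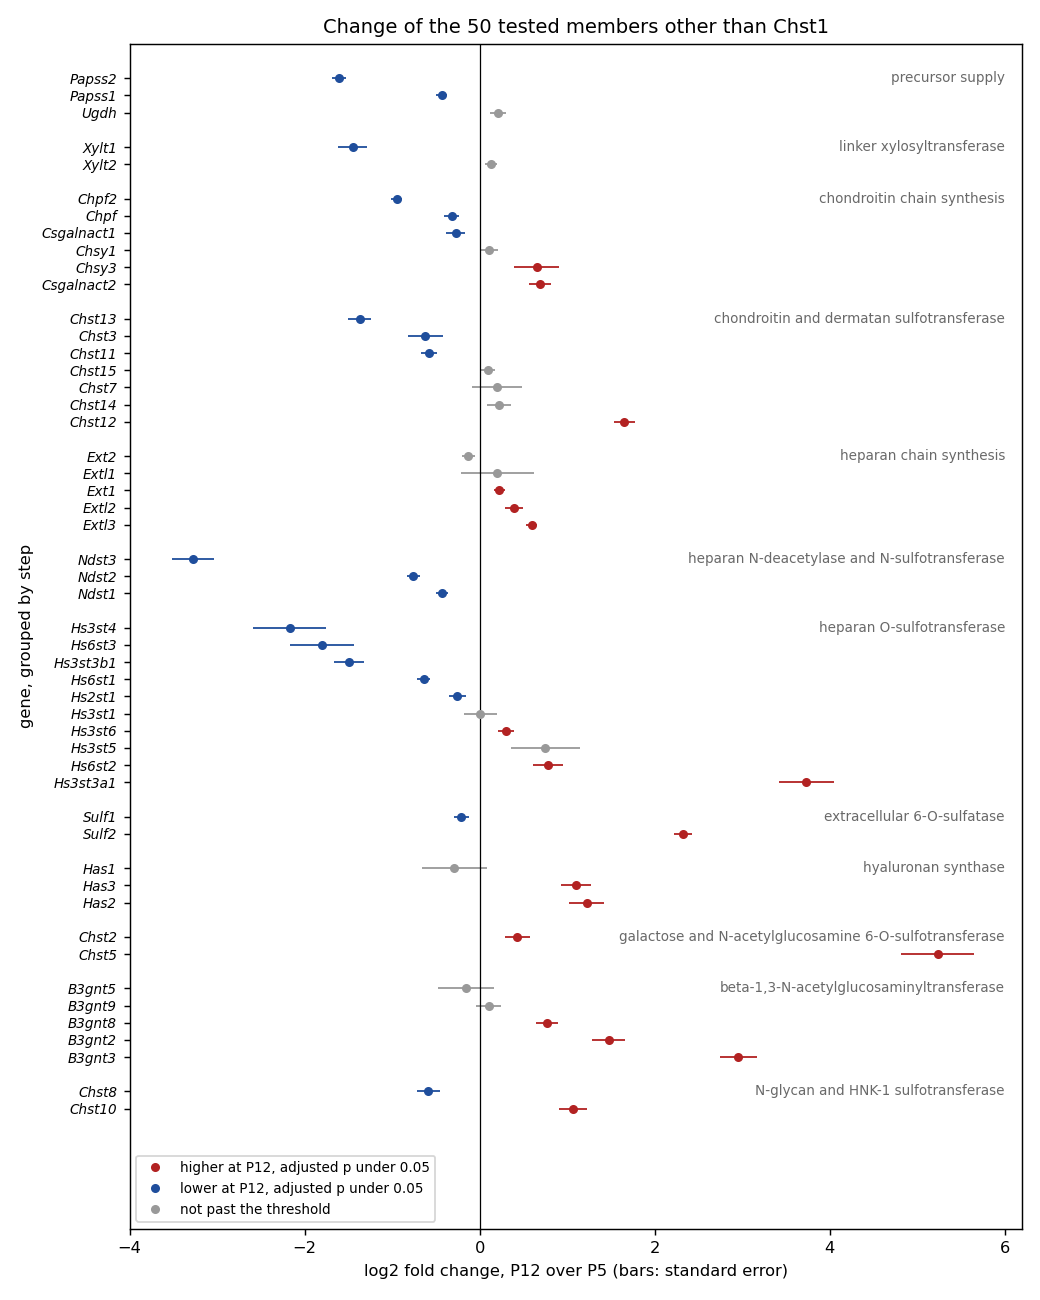
Log2 fold change from P5 to P12 (horizontal axis) of the 50 tested members other than Chst1, grouped by step of synthesis, with bars for the standard error of the edgeR fit (n = 4 pools at each age). Red points were higher and blue points lower at an adjusted p under 0.05, and grey points did not pass, so that 18 are red, 19 blue and 13 grey. The points reach from -3.28 for Ndst3 to 5.23 for Chst5, and most lie within 1 log2 unit of 0.

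Chst1 (ENSMUSG00000027221, chr2:92599707-92615250, plus strand, GRCm38) encodes the sulfotransferase that places sulfate on carbon 6 of galactose in keratan sulfate and related N-acetyllactosamine chains. It was counted at 14816, 16753, 14588 and 18853 reads in the P5 libraries and at 86, 47, 66 and 59 reads in the P12 libraries. Normalized, P5 stood at 19047, 18729, 19229.9 and 19955 and P12 at 63.1, 39.7, 61.2 and 59.2. No P12 library came near a P5 library, and P12 library 2 was the lowest. The means were 19240.2 ± 519 at P5 and 55.8 ± 10.9 at P12 (SD, n = 4), a 344-fold lower mean (log2 fold change -8.43). Over the alternative fits the log2 fold change lay between -8.51 and -8.05, which describes the value that Chst1 was chosen for. Per kilobase, Chst1 was the most abundant member at P5, at 7179 ± 194, and it ranked 58 among all genes of the table. At P12, it stood at 20.8 ± 4.05 per kilobase, which was rank 41 among the members and rank 12707 among all genes. Of the summed levels per kilobase of the members, Chst1 alone took 48.5% to 50.1% at P5 and 0.228% to 0.343% at P12. Without it, the normalized counts of the members, not divided by length, summed to 37152 ± 663 at P5. At P12 they summed to 34043 ± 1644 (SD, n = 4 at each age). Under this TMM scaling, the range of the P12 libraries, from 32257 to 36214, lay just below that of the P5 libraries, from 36475 to 37880. Total count scaling raised P12 values relative to P5, with an all-gene median of 0.38 on the log2 scale. The sum was not computed under it, so the order of the ages is given for TMM only.

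The other sulfotransferases of the Chst1 type act on carbon 6 of N-acetylglucosamine in the same kind of chain, and neither Chst5 nor Chst2 was lower at P12. Chst5, known for the sulfation of corneal keratan sulfate in mice, had 1, 2, 0 and 6 reads at P5 and 122, 132, 114 and 109 at P12. Normalized, P5 stood at 1.29, 2.24, 0 and 6.35 and P12 at 89.4, 111, 106 and 109 (ENSMUSG00000031952, chr8:111889136-111910447, minus strand). The P12 libraries of Chst5 lay close together and far above the P5 libraries, of which 3 were at or below 3 reads. It rose at P12 (log2 fold change 5.23, standard error 0.42, edgeR adjusted p = 1.20e-06), and leaving out each library in turn gave log2 fold changes between 4.87 and 6.26. Chst2, which sulfates N-acetylglucosamine on many glycoproteins, had 399 ± 58.5 at P5 and 538 ± 111 at P12 (log2 fold change 0.43, standard error 0.15, edgeR adjusted p = 0.0260), with overlap between the ages. Its call was lost without P5 library 1, P5 library 5 or P12 library 4. Chst4, which makes selectin ligands in lymph node vessels, had no reads. Together, Chst1, Chst2, Chst4 and Chst5 summed to 7235 ± 194 at P5 and 142 ± 18.4 at P12 per kilobase, a sum carried by Chst1 at P5, and the highest mean at P12 was that of Chst2, 73.4 ± 15.1 per kilobase.

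**Figure D2:**
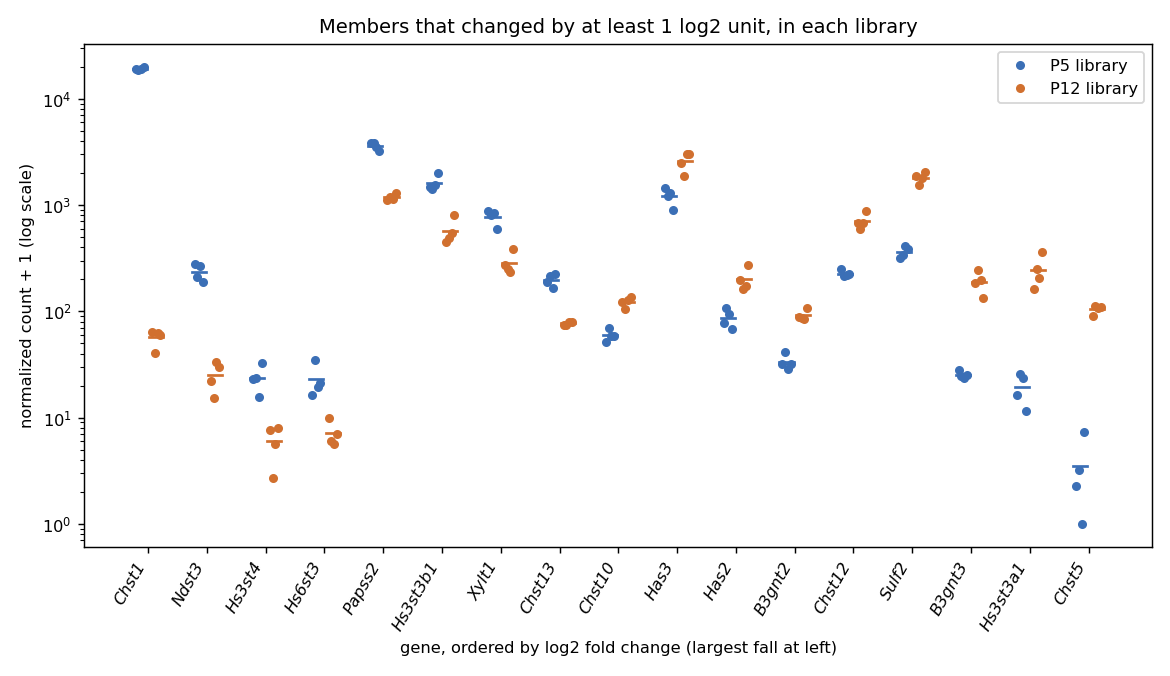
Normalized count plus 1 (vertical axis, log scale) in each library for Chst1 and the other members that differed by at least 1 log2 unit, with 1 point per pool of 5 pups, 4 pools at each age, and a line at the mean. Chst1 lies between 18729 and 19955 in the P5 libraries and below 100 in the P12 libraries, and Chst5 shows the opposite order at lower levels. The ages do not overlap for any gene shown, but Chst1 was chosen for its fall and the others for the size of their change.

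The B3gnt enzymes add the N-acetylglucosamine that lengthens poly-N-acetyllactosamine, the backbone of keratan sulfate. Of the 5 tested, 3 were higher at P12, 0 were lower and 2 did not pass, where 28.8% of all genes were higher and 28.4% lower. B3gnt3, known for extending core O-glycans of epithelial mucins, had 27.0, 23.5, 22.4 and 24.3 at P5 and 185, 242, 196 and 132 at P12. Every P12 library lay above the P5 libraries, with P12 library 4 the lowest of them (log2 fold change 2.95, standard error 0.21, edgeR adjusted p = 5.84e-07, and 3.08 on the log2 scale without that library). B3gnt2, the main polylactosamine extender of N-glycans in mouse tissues, had 30.9, 40.2, 27.7 and 30.7 at P5 and 87.2, 85.2, 84.3 and 105 at P12 and also rose (log2 fold change 1.47, standard error 0.19, edgeR adjusted p = 5.10e-05). Of its exonic bases, 66.0% are shared on the same strand with Gm28048, which had 0 counts. How reads in the shared bases were counted is not known. The 0 counts of Gm28048 do not show that no reads of B3gnt2 were lost there, so its level is uncertain. B3gnt8, which acts on branched N-glycans, rose from 726 ± 106 at P5 to 1235 ± 179 at P12 (log2 fold change 0.77, standard error 0.12, edgeR adjusted p = 0.000282). It shares 18.1% of its exonic bases with Bckdha on the opposite strand, and without the counting strand reads of the pair cannot be told apart. B3gnt9 (log2 fold change 0.10, edgeR adjusted p = 0.565) and B3gnt5, which starts lacto-series glycolipids (log2 fold change -0.16, edgeR adjusted p = 0.694), did not pass. B3gnt9 shares 16.5% of its exonic bases with D230025D16Rik on the opposite strand. D230025D16Rik had 354 to 442 counts at P5 and 444 to 609 at P12, so the same limit holds as for B3gnt8. B3gnt7, known for keratan sulfate elongation, was not tested, with 4 to 12 reads at P5 and 4 to 9 at P12.

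Sulfate reaches all of these enzymes as PAPS, which the PAPS synthases Papss1 and Papss2 make, and UDP-glucuronate for the chains comes from Ugdh. Both synthases fell at P12. Papss2 had 3827, 3839, 3529 and 3221 at P5 and 1108, 1179, 1128 and 1309 at P12, with no overlap (log2 fold change -1.61, standard error 0.08, edgeR adjusted p = 3.19e-08). Papss1 had 1915, 1822, 2039 and 1915 at P5 and 1411, 1461, 1335 and 1479.9 at P12, again with no overlap (log2 fold change -0.44, standard error 0.06, edgeR adjusted p = 8.64e-05). Scaled by total count, the fall of Papss1 no longer passed. The change was larger for Papss2: the log2 ratio of Papss1 to Papss2 was -0.90 ± 0.16 at P5 and 0.27 ± 0.08 at P12 (SD, n = 4), and Papss1 took 38.9% ± 2.59 of the pair per kilobase at P5 and 58.9% ± 1.27 at P12. Ugdh had 1082 ± 108 at P5 and 1253 ± 130.1 at P12 and did not pass (log2 fold change 0.21, edgeR adjusted p = 0.0683), although it passed as higher without P5 library 4, without P12 library 1, with no filter on low counts and under total count scaling.

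The ratio of the genes that share a step was compared between ages for 12 pairs by a two-sided exact permutation test. It used log2 ratios of normalized counts, not divided by gene length, with a pseudocount of 1. With 4 pools at each age, the smallest p this test can give is 0.0286, and this became 0.0381 after Benjamini-Hochberg adjustment over the 12 pairs. For 9 pairs the ages did not overlap and the test gave this smallest p. The other 3 pairs overlapped. Among all single genes tested, 26% lay above and 26.6% below at P12 without overlap, and no such share was computed for random pairs of genes. Each of the 12 pairs is described with its step below.

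**Figure D3:**
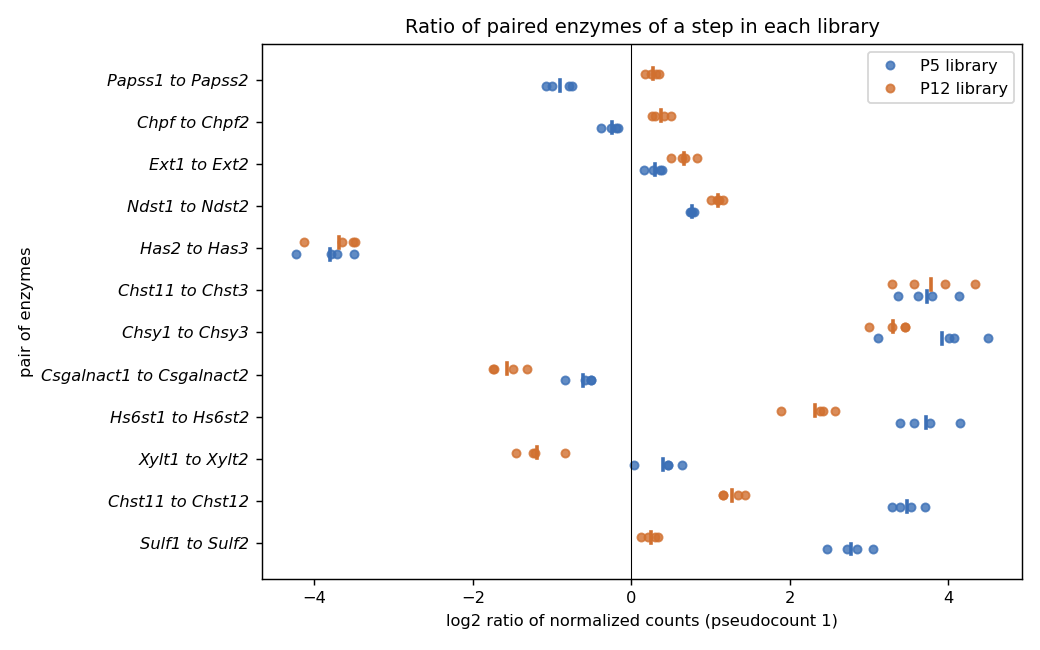
Log2 ratio of normalized counts (pseudocount 1) of the genes in each of the 12 pairs, with 1 point per pool and a line at the mean of the 4 pools at each age. Counts were not divided by gene length, so that the sign of a ratio does not show which gene is higher per kilobase. The largest difference is that of Sulf1 to Sulf2, -2.53 from P5 to P12, followed by Chst11 to Chst12, -2.21, while the points of the ages overlap for Chst11 to Chst3, Has2 to Has3 and Chsy1 to Chsy3.

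Synthesis on a core protein begins with xylose, added by Xylt1 or Xylt2. Xylt1 had 872, 805, 836 and 598 at P5 and 272, 247, 234 and 384 at P12 and fell without overlap (log2 fold change -1.45, standard error 0.16, edgeR adjusted p = 1.69e-05). Xylt2 had 559, 586, 606 and 586 at P5 and 633, 587, 641 and 686 at P12, which overlapped (log2 fold change 0.12, edgeR adjusted p = 0.142). Xylt1 therefore took 35.3% ± 4.03 of the pair per kilobase at P5 and 15.4% ± 2.39 at P12, a difference of -1.58 in the log2 ratio (exact permutation p = 0.0286, adjusted 0.0381).

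Chondroitin chains are started by Csgalnact1 and Csgalnact2 and lengthened by Chsy1 and Chsy3 with the partner proteins Chpf and Chpf2. Of these 6 genes, 2 were higher, 3 were lower and 1 did not pass, where 28.8% of all genes were higher and 28.4% lower. Chpf2 had 1682, 1522, 1561 and 1605 at P5 and 875, 837, 804 and 777 at P12 and fell without overlap (log2 fold change -0.95, standard error 0.06, edgeR adjusted p = 2.53e-07). It shares 44.1% of its exonic bases with Smarcd3 on the opposite strand, which had 190 to 315 counts at P5 and 223 to 329 at P12. Chpf, with 1286, 1356, 1364 and 1346 at P5 and 1241, 1114, 992 and 929.7 at P12, was lower by less (log2 fold change -0.32, standard error 0.09, edgeR adjusted p = 0.00736), and its sign turned under total count scaling. The log2 ratio of Chpf to Chpf2 was accordingly higher at P12 by 0.62 (exact permutation p = 0.0286, adjusted 0.0381). Csgalnact2 had 444, 363, 372 and 290.0 at P5 and 602, 676, 525 and 557 at P12 and rose (log2 fold change 0.69, standard error 0.12, edgeR adjusted p = 0.000602). Csgalnact1 had 247, 255, 248 and 204 at P5 and 178, 203, 210.3 and 197 at P12, with overlap, and passed narrowly (log2 fold change -0.27, standard error 0.11, edgeR adjusted p = 0.0476). That call was lost without any 1 of the libraries other than P5 library 5, and its sign turned under total count scaling. Csgalnact1 took 41.2% ± 2.66 of the pair per kilobase at P5 and 26.4% ± 2.80 at P12 (difference -0.96 in the log2 ratio, exact permutation p = 0.0286, adjusted 0.0381). The polymerase Chsy1 had 698, 580.2, 618 and 603 at P5 and 786, 723, 597 and 577 at P12 and did not pass (log2 fold change 0.11, edgeR adjusted p = 0.421). Its paralog Chsy3 had 42.4, 66.0, 26.4 and 34.9 at P5 and 71.1, 65.0, 60.2 and 71.3 at P12, which overlapped, and lay at the threshold (log2 fold change 0.65, standard error 0.26, edgeR adjusted p = 0.0498). The Chsy3 call was lost in 12 of the 18 alternative fits, among them those without any 1 of the libraries other than P5 library 3. The log2 ratio of Chsy1 to Chsy3 differed by -0.63 (exact permutation p = 0.114, adjusted 0.137).

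The 7 sulfotransferases of chondroitin and dermatan sulfate summed to 908 ± 77.0 at P5 and 903 ± 58.8 at P12 per kilobase under TMM scaling. Total count scaling raised P12 values relative to P5 (all-gene median 0.38 on the log2 scale, against 0.01 under TMM). The sum was not computed under total count scaling, so its similarity between ages is given for TMM only. The composition of the 7 genes differed between ages. Chst11, Chst12 and Chst13 sulfate carbon 4 of N-acetylgalactosamine. Chst11, the most abundant of the 7 per kilobase in every P5 library, had 2458, 2499.8, 2286 and 2914 at P5 and 1525, 1618, 1717 and 1952 at P12 and fell (log2 fold change -0.58, standard error 0.09, edgeR adjusted p = 0.00028). Chst12 had 249, 215, 216 and 222 at P5 and 683, 599.9, 673 and 878 at P12 and rose 3.14-fold (log2 fold change 1.65, standard error 0.12, edgeR adjusted p = 5.32e-07). Neither gene overlapped between the ages. Chst13 had 188, 215, 165 and 221 at P5 and 74.1, 73.4, 78.8 and 78.3 at P12 and fell, likewise without overlap (log2 fold change -1.37, standard error 0.13, edgeR adjusted p = 6.41e-06). Of the 7 genes per kilobase, Chst11 took 50.5% ± 1.15 at P5 and 34.1% ± 2.24 at P12, Chst12 10.6% ± 1.08 and 33.1% ± 3.31, and Chst13 13.1% ± 1.01 and 5.11% ± 0.269 (SD, n = 4). At P12, Chst11 and Chst12 thus stood at 308 ± 33.2 and 299.9 ± 50.5 per kilobase, a difference smaller than their SD, and Chst12 was the higher in 2 of the 4 libraries, where Chst11 had been well above Chst12 in every P5 library. The log2 ratio of Chst11 to Chst12 was 3.48 ± 0.18 at P5 and 1.27 ± 0.14 at P12 (exact permutation p = 0.0286, adjusted 0.0381). Carbon 6 is sulfated by Chst3 and Chst7. Chst3 had 139, 202, 220.1 and 209.6 at P5 and 155, 135, 84.3 and 124 at P12, with overlap (log2 fold change -0.62, standard error 0.20, edgeR adjusted p = 0.0191), and its call was lost without P5 library 4 and under total count scaling. The log2 ratio of Chst11 to Chst3 was 3.73 ± 0.32 at P5 and 3.79 ± 0.46 at P12 (exact permutation p = 0.829, adjusted 0.829). Chst7 (log2 fold change 0.20, edgeR adjusted p = 0.581), the dermatan 4-O-sulfotransferase Chst14 (log2 fold change 0.22, edgeR adjusted p = 0.202) and Chst15, which adds a second sulfate to 4-sulfated units (log2 fold change 0.09, edgeR adjusted p = 0.315), did not pass, although Chst14 passed without P12 library 4, and both Chst14 and Chst15 passed as higher under total count scaling.

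**Figure D4:**
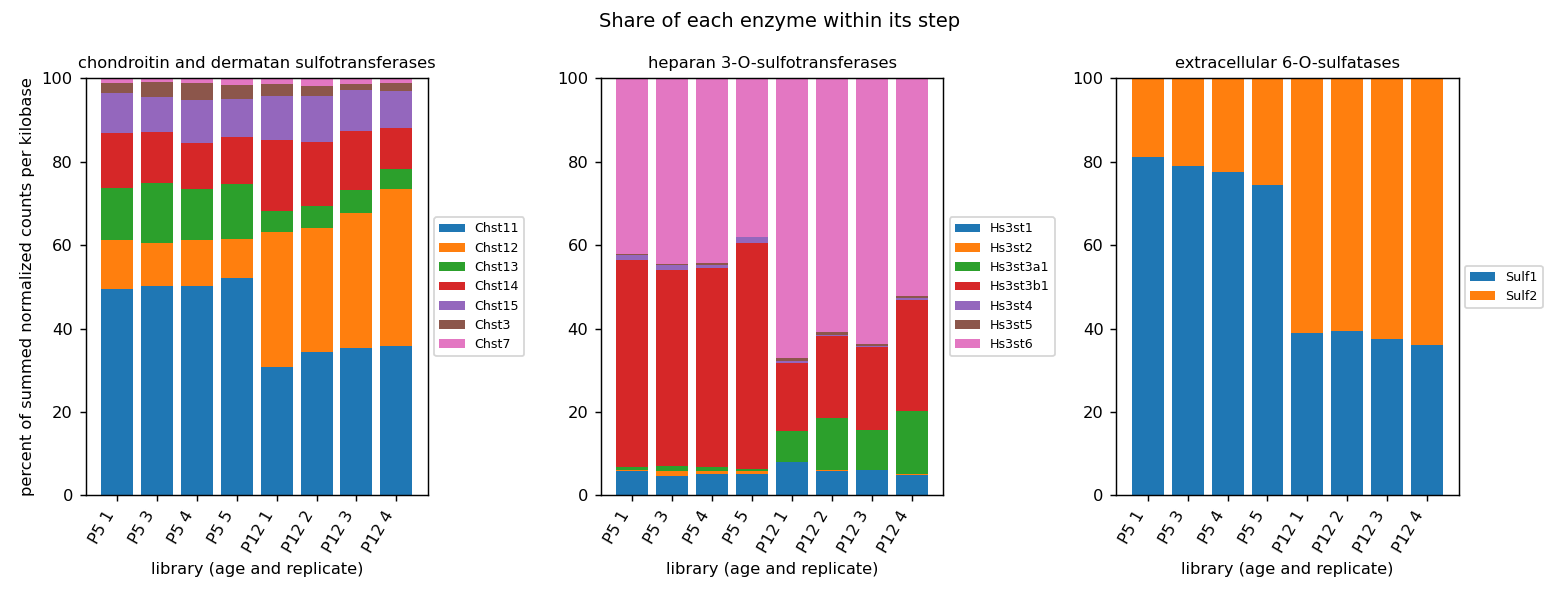
Share of each gene, in percent of the summed normalized counts per kilobase of its family, in each of the 8 libraries (stacked bars from 0 to 100, 1 bar per pool). Chst12 widens from 10.6% ± 1.08 at P5 to 33.1% ± 3.31 at P12, Hs3st3b1 narrows from 49.7% ± 3.27 to 20.7% ± 4.29, and Sulf2 widens from 22.0% ± 2.85 to 61.9% ± 1.52 (means ± SD, n = 4).

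Heparan sulfate chains are lengthened by the Ext1 and Ext2 polymerase, and the step also holds the related Extl genes. Of the 5 genes, 3 were higher, 0 lower and 2 did not pass, where 28.8% of all genes were higher and 28.4% lower. Ext1 had 2077, 1874, 1988 and 1765 at P5 and 2226, 2254, 2351 and 2172 at P12 and rose slightly (log2 fold change 0.23, standard error 0.06, edgeR adjusted p = 0.0107). Ext2 had 1583, 1453, 1641 and 1574 at P5 and 1579, 1446, 1323 and 1361 at P12 and did not pass (log2 fold change -0.13, edgeR adjusted p = 0.135). Ext2 passed as higher under total count scaling (log2 fold change 0.25, edgeR adjusted p = 0.0171), and it passed as lower without P12 library 1. The ratio of Ext1 to Ext2 rose by 0.36 on the log2 scale (exact permutation p = 0.0286, adjusted 0.0381). Extl3, which adds the first N-acetylglucosamine of the chain, rose from 1049.9 ± 59.9 at P5 to 1583 ± 55.7 at P12 (log2 fold change 0.59, standard error 0.06, edgeR adjusted p = 9.68e-06), and Extl2 rose as well (log2 fold change 0.39, edgeR adjusted p = 0.00616). Extl1 was low and did not pass (log2 fold change 0.20, edgeR adjusted p = 0.700).

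The Ndst enzymes replace N-acetyl by N-sulfate groups and so open the chain to further sulfation. All 3 that were tested were lower at P12, where 28.4% of all genes tested were lower. Ndst1 had 2392, 2338, 2327 and 2752 at P5 and 1877, 1853, 1769.9 and 1769 at P12 (log2 fold change -0.43, standard error 0.07, edgeR adjusted p = 0.000218). Ndst2 had 1422, 1349, 1364 and 1652 at P5 and 871, 830.3, 833 and 878 at P12 (log2 fold change -0.76, standard error 0.07, edgeR adjusted p = 5.53e-06). Ndst3 was far lower in abundance, with 276, 208, 265 and 188 at P5 and 21.3, 14.3, 32.4 and 29.1 at P12, but fell by 9.69-fold (log2 fold change -3.28, standard error 0.24, edgeR adjusted p = 5.92e-07). None of the 3 genes overlapped between the ages, and the fall of Ndst1 did not pass under total count scaling. Summed per kilobase, the Ndst genes stood at 746 ± 61.2 at P5 and 489.6 ± 10.2 at P12. Ndst1 fell less than Ndst2, with a log2 ratio of 0.76 ± 0.02 at P5 and 1.09 ± 0.06 at P12 (exact permutation p = 0.0286, adjusted 0.0381).

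The heparan sulfate 3-O-sulfotransferases, which complete rare binding sites such as that of antithrombin, held changes in opposite directions. Hs3st3b1 (ENSMUSG00000070407, chr11:63885792-63922290, minus strand) had 1464, 1402, 1542 and 1988 at P5 and 449, 491, 541 and 797 at P12 and fell (log2 fold change -1.49, standard error 0.17, edgeR adjusted p = 2.22e-05). Hs3st3a1 (ENSMUSG00000047759, chr11:64435332-64522841, plus strand) had 15.4, 24.6, 22.4 and 10.6 at P5 and 161, 248, 205 and 358 at P12 and rose 13.3-fold (log2 fold change 3.73, standard error 0.31, edgeR adjusted p = 1.88e-06). Both changes were without overlap, and P12 library 4 was the highest of the P12 libraries for both genes. The genes lie 513041 bases apart on opposite strands and encode near-identical catalytic domains, so that reads could have been split between them by the counting, which makes their separate values uncertain. Hs3st3a1 also shares 32.9% of its exonic bases with the antisense gene F930015N05Rik, which had at most 13 counts in any library. Hs3st6 had 334 ± 21.2 at P5 and 411 ± 36.0 at P12 and rose slightly (log2 fold change 0.30, standard error 0.09, edgeR adjusted p = 0.0124). It took 42.2% ± 3.03 of the family per kilobase at P5 and 60.9% ± 6.37 at P12, against 49.7% ± 3.27 and 20.7% ± 4.29 for Hs3st3b1 and 0.727% ± 0.289 and 11.0% ± 3.35 for Hs3st3a1. Hs3st4 was low, with 21.9, 22.4, 14.5 and 31.8 at P5 and 6.60, 1.69, 4.63 and 7.03 at P12, and fell (log2 fold change -2.17, standard error 0.42, edgeR adjusted p = 0.000968). Hs3st1 (log2 fold change 0.01, edgeR adjusted p = 0.976) and Hs3st5 (log2 fold change 0.75, edgeR adjusted p = 0.128) did not pass.

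The sequences before the starts of Chst1, the member with the largest difference, and of the opposed pair Hs3st3a1 and Hs3st3b1 are shown for comparison. They are the 250 bases upstream of each gene's start in RefSeq (GRCm38.p6), 5′ to 3′ on the gene's strand, at chr2:92600867-92601116 (plus strand), chr11:64435082-64435331 (plus strand) and chr11:63922285-63922534 (minus strand). Capitals mark GGGCGG, the core of GC boxes, and CCAAT, each searched on both strands (on the other strand they read CCGCCC and ATTGG). In Hs3st3a1 they overlap.
Chst1: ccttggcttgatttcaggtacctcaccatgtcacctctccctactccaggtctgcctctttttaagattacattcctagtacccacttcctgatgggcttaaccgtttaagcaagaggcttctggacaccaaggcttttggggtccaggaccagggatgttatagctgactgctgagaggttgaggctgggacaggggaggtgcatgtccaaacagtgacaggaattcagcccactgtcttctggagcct
Hs3st3a1: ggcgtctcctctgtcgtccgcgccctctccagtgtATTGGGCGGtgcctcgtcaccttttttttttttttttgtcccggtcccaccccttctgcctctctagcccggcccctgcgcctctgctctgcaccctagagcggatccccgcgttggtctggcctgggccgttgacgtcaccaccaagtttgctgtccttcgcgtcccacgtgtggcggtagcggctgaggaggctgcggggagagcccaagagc
Hs3st3b1: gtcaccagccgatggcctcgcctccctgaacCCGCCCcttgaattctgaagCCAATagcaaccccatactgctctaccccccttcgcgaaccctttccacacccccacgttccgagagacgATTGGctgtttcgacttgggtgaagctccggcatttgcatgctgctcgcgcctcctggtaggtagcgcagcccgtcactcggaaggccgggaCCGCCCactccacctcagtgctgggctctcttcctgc
Hs3st3a1 held 1 GGGCGG and 1 CCAAT, Hs3st3b1 held 2 of each, and the Chst1 window held neither. Of the 32851 RefSeq windows of this length, 32.7% held GGGCGG and 33.8% held CCAAT on either strand. The GC content was 51.6% for Chst1, 64.0% for Hs3st3a1 and 62.4% for Hs3st3b1, where the median of all windows was 52.4%. The RefSeq start of Chst1 lies 1410 bases inside the deposited gene, so that this window lies within the deposited gene and is not the sequence before its start.

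The 6-O-sulfotransferases of heparan sulfate also differed among themselves. Hs6st1 had 1206, 1213, 1217 and 1482 at P5 and 846, 802, 839.5 and 790.1 at P12 and fell (log2 fold change -0.64, standard error 0.08, edgeR adjusted p = 3.12e-05). Hs6st2 had 87.4, 102, 115 and 82.6 at P5 and 161, 149, 139.9 and 212 at P12 and rose (log2 fold change 0.78, standard error 0.17, edgeR adjusted p = 0.00225). Neither overlapped between ages, and Hs6st1 took 94.9% ± 1.06 of the pair per kilobase at P5 and 87.5% ± 2.37 at P12 (difference -1.40 in the log2 ratio, exact permutation p = 0.0286, adjusted 0.0381). Hs6st3 was low, with 15.4, 33.5, 18.5 and 20.1 at P5 and 8.80, 5.06, 4.63 and 6.02 at P12, and fell (log2 fold change -1.80, standard error 0.37, edgeR adjusted p = 0.00142). Hs2st1, the single 2-O-sulfotransferase, had 1816 ± 65.8 at P5 and 1522 ± 235 at P12 (log2 fold change -0.26, standard error 0.09, edgeR adjusted p = 0.0376), with overlap. The Hs2st1 call was lost without each of P5 libraries 1, 4 and 5 and P12 libraries 1, 2 and 3, and its sign turned under total count scaling.

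The sulfatases Sulf1 and Sulf2 remove 6-O-sulfate from finished heparan sulfate outside the cell. Sulf2 (ENSMUSG00000006800, chr2:166073089-166155663, minus strand) had 316, 339, 413 and 385 at P5 and 1890.1, 1557, 1778 and 2028 at P12 and rose 4.99-fold (log2 fold change 2.32, standard error 0.10, edgeR adjusted p = 1.64e-08). Sulf1 had 2617, 2435, 2731 and 2145 at P5 and 2329, 1958, 2061 and 2211 at P12, with overlap, and lay at the threshold (log2 fold change -0.21, standard error 0.08, edgeR adjusted p = 0.0495). The Sulf1 call was lost without each of P5 libraries 1, 3 and 4 and P12 libraries 2 and 3, and its sign turned under total count scaling. Sulf1 took 78.0% ± 2.85 of the pair per kilobase at P5 and 38.1% ± 1.52 at P12, and the log2 ratio was 2.77 ± 0.24 at P5 and 0.24 ± 0.09 at P12 (exact permutation p = 0.0286, adjusted 0.0381). The pair summed to 282 ± 23.8 at P5 and 498 ± 46.5 at P12 per kilobase.

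Hyaluronan is made by the Has synthases, and 2 of the 3 rose at P12, where 28.8% of all genes tested were higher. Has3 had 1441, 1209.6, 1294 and 899.7 at P5 and 2484, 1855, 3017 and 3017 at P12 (log2 fold change 1.10, standard error 0.17, edgeR adjusted p = 0.000192). Has2 had 75.8, 106, 92.3 and 67.7 at P5 and 196, 162, 171 and 269 at P12 (log2 fold change 1.22, standard error 0.20, edgeR adjusted p = 0.000306). Both were without overlap, and they rose together: the log2 ratio of Has2 to Has3 was -3.81 ± 0.31 at P5 and -3.70 ± 0.30 at P12 (exact permutation p = 0.543, adjusted 0.592). Has3 took 88.8% ± 1.74 of the family per kilobase at P5 and 89.0% ± 1.73 at P12. Has1 was low and did not pass (log2 fold change -0.29, edgeR adjusted p = 0.524).

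The remaining members sulfate N-glycans and the HNK-1 epitope, a sulfated glucuronate of neural cell adhesion molecules. Chst10, the HNK-1 sulfotransferase, had 50.1, 68.2, 58.0 and 57.2 at P5 and 122, 105, 126 and 137 at P12 and rose without overlap (log2 fold change 1.06, standard error 0.16, edgeR adjusted p = 0.000181). Chst8, which sulfates N-acetylgalactosamine on glycoprotein hormones, had 759 ± 93.3 at P5 and 506 ± 92.4 at P12 and was lower, with overlap (log2 fold change -0.59, standard error 0.13, edgeR adjusted p = 0.00222), and it did not pass under total count scaling.

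Markers of other cell types moved with age as well. The 4 oral mucosa markers Krt13, Krt4, Krt6b and Krt24 were all higher at P12 and summed to 438 to 845 at P5 and to 3152 to 30595 at P12, lowest in P12 library 4. The 4 endothelial markers Pecam1, Cdh5, Kdr and Tek were all higher, from between 2107 and 2532 to between 4061 and 4324, as were the 4 leukocyte markers Ptprc, Cd68, Csf1r and Cd52, from between 676 and 942 to between 1087 and 1476. Of the cartilage markers Col2a1, Col9a1, Matn1 and Acan, Matn1 had 0 counts in all libraries, and of the 3 tested 2 were higher and 0 lower. The cartilage list summed to 325 to 439 at P5 and to 453 to 860 at P12. The odontoblast and bone markers Dspp, Dmp1, Ibsp and Bglap summed to 151189 to 199864 at P5 and to 175246 to 206455 at P12, with 1 of the 4 higher and 1 lower. The muscle markers Acta1, Myh3, Ckm and Tnnt3 summed to 454 to 813 at P5 and to 222 to 300.4 at P12, and the 3 that were tested were lower. Their part in the changes of the members was not tested. Without P5 library 5 and P12 library 4, which held the lowest secretory marker sum at P5 and the highest at P12, 17 members were higher and 19 lower.

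Further genes of the pathway were counted in 4 lists, to be read against the 28.8% higher and 28.4% lower among all genes, and the 54% and 14.2% under total count scaling. Of 15 genes of the linker and of chain modification, 2 (13.3%) were higher, 6 (40%) lower and 7 did not pass, with a median log2 fold change of -0.19, and under total count scaling 7 (46.7%) were higher and 4 (26.7%) lower. Pxylp1, the xylose phosphatase that lets the linker be extended, fell (log2 fold change -1.84, edgeR adjusted p = 1.48e-08), as did B3gntl1 (log2 fold change -1.09, edgeR adjusted p = 3.25e-05). Dse, the epimerase that turns chondroitin into dermatan sulfate (log2 fold change 0.84, edgeR adjusted p = 0.00200), and B4galt1, the galactosyltransferase of N-acetyllactosamine (log2 fold change 0.55, edgeR adjusted p = 5.66e-06), rose. Of 14 genes of precursor supply, 5 (35.7%) were higher, 5 (35.7%) lower and 4 did not pass, with a median of 0.16, and total count scaling gave 9 (64.3%) higher and 4 (28.6%) lower. Impad1, the Golgi phosphatase that clears the spent sulfate donor (log2 fold change -1.03, edgeR adjusted p = 3.26e-06), and the sulfate transporter Slc26a2 (log2 fold change -0.97, edgeR adjusted p = 5.38e-06) fell. The sulfate transporter Slc26a1 (log2 fold change 1.87, edgeR adjusted p = 0.00306) and the nucleotide sugar transporter Slc35d1 (log2 fold change 0.69, edgeR adjusted p = 0.000176) rose.

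Of the 30 tested proteoglycan core protein genes and Cd44, 16 (53.3%) were higher, 12 (40%) lower and 2 did not pass, with a median of 0.28, where 28.8% and 28.4% of all genes were called. Total count scaling gave 18 (60%) higher and 9 (30%) lower. Ncan, the neural chondroitin sulfate proteoglycan neurocan, had 415 ± 131 at P5 and 36.6 ± 34.3 at P12 (log2 fold change -3.56, edgeR adjusted p = 5.56e-05), and Cspg5, also known from neural tissue, had 298 ± 23.9 at P5 and 48.0 ± 17.0 at P12 (log2 fold change -2.64, edgeR adjusted p = 1.53e-06). Both fell. Aspn, a small leucine-rich protein of mesenchymal matrix, had 94.5 ± 21.3 at P5 and 1289 ± 656 at P12 (log2 fold change 3.76, edgeR adjusted p = 7.80e-06), and the cell surface heparan sulfate carrier Sdc4 had 1072 ± 34.4 at P5 and 4634 ± 305 at P12 (log2 fold change 2.11, edgeR adjusted p = 1.38e-09). Both rose. Of the 20 tested genes that break glycosaminoglycans down, 11 (55%) were higher, 6 (30%) lower and 3 did not pass, with a median of 0.17, and none of the 11 rose by 1 log2 unit. Total count scaling gave 13 (65%) higher and 4 (20%) lower, against 54% and 14.2% of all genes. The number higher was 6 or 7 without P5 library 1, 3, 4 or 5 or P12 library 1 or 2. Arsb, which removes the 4-O-sulfate of chondroitin and dermatan sulfate, fell from 3912 ± 1059 at P5 to 461 ± 66.6 at P12 (log2 fold change -3.08, edgeR adjusted p = 9.79e-08), and the heparanase Hpse fell (log2 fold change -1.82, edgeR adjusted p = 1.73e-07). The hexosaminidase subunit Hexa rose (log2 fold change 0.73, edgeR adjusted p = 1.08e-05).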

How the data were processed

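RNA-seq libraries from pools of 5 wt C57BL/6 pups were made at P5 and P12, 4 at each age, after capture of polyadenylated RNA. The authors deposited whole-number read counts per gene, without normalization, with gene names, lengths and coordinates. For 54 of the 58 members the start and end are exactly those of GENCODE M21 (GRCm38). Levels per kilobase used the deposited lengths. These were below the GENCODE exonic bases for Chsy3 (2931 against 6294), Ndst1 (6070 against 7797) and Hs3st6 (1219 against 1358). The submitters' processing notes name CASAVA and mm39, and coordinates are given here as deposited. The aligner, the counting program and its use of strand are not given in the sources used here.

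Total counts were between 16574548 and 22013456 per library. No library was treated as a duplicate, since each of the 12 within-age pairs exceeded counting noise, with a chi-square of 4.76 to 74.6 per degree of freedom. The test was edgeR 4.0.16's glmQLFTest after filterByExpr, TMM and glmQLFit, run in R 4.3.3 over all genes at an adjusted p under 0.05. Normalized counts are counts scaled to the mean effective library size. Ratios of paired genes were compared over the 70 divisions of 8 libraries with scipy 1.17.1, with a pseudocount of 1. The methods of the study name DESeq2, which was run as an alternative (DESeq2 1.42.0), as was limma-voom (limma 3.58.1). The scaling was varied by DESeq2 size factors, by total count and by TMM without the 20 most abundant genes. The filter was varied by dropping it and by asking for 10 counts per library. Further alternatives left out each library in turn, or used a block for the replicate number in the 6 libraries with numbers found at both ages, the same 6 unblocked, a stricter adjusted p of 0.01, a minimum log2 change of 1 in either direction, and pseudocounts of 0.5 and 5 for the ratios. Leaving out P5 library 5 and P12 library 4 together, and the counts of the 4 further lists under each setting, were added after seeing the data. The edgeR, DESeq2 and limma-voom steps were tested on simulated data first. The members and gene lists were chosen with earlier results of these data known.

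Values in every library are given for Chst1, for members past the threshold that changed by 1 log2 unit or more, and for both genes of each pair. From each further list, the 2 largest rises and 2 largest falls with a mean normalized count of at least 100 are named, except 1 gene that is not reported here. Promoter sequences are from RefSeq (GRCm38.p6), where 44 of the 58 members have a window. From GENCODE M21, 8 members share more than 10% of their exonic bases with another gene. Plots used matplotlib 3.10.9, numpy 2.4.6 and pandas 2.3.3.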

Additional observations from a re-analysis of the deposited data

Results flagged for a closer look

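In 102 combinations of a tested member and an age, 5 libraries stood apart from the other 3 of their age by Dixon's criterion, where about 5.1 are found by chance. Chst1 in P12 library 2 had a normalized count of 39.7, where the other P12 libraries had 59.2 to 63.1. Csgalnact1 in P5 library 5 had 204 against 247 to 255, Ndst1 in P5 library 5 had 2752 against 2327 to 2392, and Hs6st1 in P5 library 5 had 1482 against 1206 to 1217. B3gnt2 in P12 library 4 had 105 against 84.3 to 87.2.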

How the results depend on the processing

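Of the 37 called members, 23 kept their call and direction in all 18 alternative fits, and Chst5, Hs3st4 and Hs6st3 kept theirs in the 17 that tested them, since they lacked 10 counts in every library. The calls of Chpf, Chst2, Chst3, Chst8, Chsy3, Csgalnact1, Ext1, Hs2st1, Ndst1, Papss1 and Sulf1 were lost or turned in at least 1 fit. Total count scaling, which moved the all-gene median from 0.01 to 0.38 on the log2 scale, turned the sign of Chpf to 0.055, Csgalnact1 to 0.10, Ext2 to 0.25, Hs2st1 to 0.11 and Sulf1 to 0.16. It left 11 members lower and 26 higher, 8885 of all genes higher and 2330 lower, 7 genes of the linker list higher and 9 of the precursor list higher.

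A log2 fold change of at least 1 left 9 members higher and 7 lower, 1864 of all genes higher and 1677 lower, 0 higher and 3 lower in the linker list, 2 and 1 in the precursor list, 10 and 7 among core proteins, and 0 degradation genes higher. The degradation genes higher were 6 at an adjusted p under 0.01 and between 6 and 10 with each library left out. With each library left out, 16 to 18 members were higher and 15 to 19 lower, and 4309 to 4938 of all genes were higher and 4364 to 5092 lower. The log2 ratio of Has2 to Has3 then lay between -0.03 and 0.26 and that of Chst11 to Chst3 between -0.12 and 0.23, while the other 10 pairs kept their sign. With 3 libraries against 4, the exact test of a ratio cannot pass, so those are values without a test.

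Libraries with the same replicate number did not deviate together (correlations 0.04, 0.003 and -0.04), so the numbers do not pair them. With the replicate number as a block over 6 libraries, 16 members were higher and 16 lower and 6 degradation genes were higher, and 5 of the 37 called members (Chst3, Chsy3, Csgalnact1, Ext1 and Hs2st1) lost their call. Without the block, the same libraries gave 16 and 17 members, 6 degradation genes and 4 lost calls, those named other than Csgalnact1. Depth limits the members near the floor of 3 counts: Chst5 at P5, Hs3st4, Hs6st3 and the 7 members not tested. Of these, B3gnt4 is also limited by the exonic bases it shares with Diablo.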
